A study of Mus musculus with 18 samples.

Results

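Collagen chain genes encode the α chains from which all collagens are built. They were taken as every mouse gene whose symbol has the form Col, a type number, a and a chain number. This gave 44 genes of 27 collagen types among the 55487 gene rows of the count table, of which 21 had enough reads to be tested. The cells were im-TEC, conditionally immortalized mouse kidney tubular epithelial cells, which carry the SV40 large T antigen and are kept at 33 °C with interferon-γ at 10 ng/mL. All 6 groups shared the same preparation: 7 days at 37 °C without interferon-γ before seeding, to lower the activity of that antigen. The groups, each with 3 libraries, were transforming growth factor β (TGFβ, 10 ng/mL) with nicotinamide (NAM, 1 mM), NAM alone, TGFβ with S-adenosyl methionine (SAM, 0.5 mM), SAM alone, TGFβ alone and an untreated control. Treatment lasted 48 h in every group, and 100 ng of RNA went into each 3′ end library (QuantSeq), which reads a transcript close to its 3′ end. The design asks how TGFβ, a cytokine that drives fibrosis, changed expression in these cells, alone and with NAM or SAM. These are 2 substrates of the enzyme nicotinamide N-methyltransferase. Each was also given without TGFβ, and no group received both.

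Each collagen molecule is a triple helix of α chains, and the combination of chains decides the kind of structure it forms. Fibrillar collagens such as type I form the cross-banded fibrils of scar and connective tissue. Type IV collagens form the sheet-like network of basement membranes, on which tubular epithelium rests, and fibril-associated, beaded-filament and anchoring collagens link such structures together. TGFβ is known to induce fibrillar collagen genes through SMAD transcription factors. In the kidney, loss of the type IV chains encoded by Col4a3, Col4a4 or Col4a5 causes Alport syndrome in humans.

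Reads assigned to genes numbered 4171170 to 7717626 per library, and 15236 to 16379 genes had at least 1 read. Levels are given as CPM, gene reads relative to library size after scaling for composition, for the 3 libraries of a group in replicate order. Differences are fitted log2 changes ± SE from edgeR's quasi-likelihood test over 13469 genes. The test gives no SE, so it was formed as the size of the log2 change divided by the square root of the F statistic. A gene was called where the Benjamini-Hochberg adjusted p was under 0.05. Because reads are taken at the 3′ end and the number of reads per molecule was not calibrated between genes, levels are compared between groups and not between genes. Nothing in the labels says that the 3 libraries of a group came from separate cultures, so p-values measure the spread between these libraries, which may be technical. SAM replicates 2 and 3 carry treatment tags, DIM. and LUN., that conflict with their titles, and the 6 libraries with SAM form a separate block of library numbers, so anything else that goes with those numbers and SAM cannot be told apart. Main results on SAM are therefore also given without SAM replicates 2 and 3. NAM replicate 3, TGFβ+NAM replicate 1 and TGFβ+SAM replicate 3 differed most from the others of their group: pairs with 1 of them had a chi-square of 9.24 to 15.8 per degree of freedom over genes, and all other replicate pairs 3.43 to 6.84. Values without NAM replicate 3 and TGFβ+NAM replicate 1 together, and without each library singly, are given where a call ends.

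Markers of the labelled cell type were present. The 12 tubular epithelium markers summed to 788 to 863 CPM in TGFβ+NAM cells against 2090 to 2320 CPM in NAM cells, 776 to 885 CPM in TGFβ+SAM cells against 2170 to 2260 CPM in SAM cells, and 817 to 902 CPM in TGFβ cells against 1940 to 2030 CPM in control cells. Epcam was at 0 in all 18 libraries. Of the 8 markers tested, Krt8 was called higher and 4, 4 and 5 were called lower in these 3 comparisons. Aqp1, a water channel of the proximal tubule, averaged 106 ± 21.3 CPM in TGFβ cells against 1031 ± 49.2 CPM in control cells and made up most of the difference in the sum, while the keratin Krt8 averaged 189 ± 6.65 CPM in TGFβ cells against 99.4 ± 6.11 CPM in control cells. Fibroblast markers were near 0: Dpt, Thy1 and Lum had no read in any library, and the 6 markers summed to at most 4.49 CPM. The 6 fibroblast markers summed to 0.718 to 4.49 CPM in TGFβ+NAM cells against 0 to 1.26 CPM in NAM cells, 1.55 to 4.08 CPM in TGFβ+SAM cells against 0 to 0.304 CPM in SAM cells, and 1.23 to 2.83 CPM in TGFβ cells against 0 to 0.423 CPM in control cells. Of these 6 only Pdgfrb had enough reads to be tested, and it was called higher in TGFβ than in control cells and in TGFβ+SAM than in SAM cells, the second not without SAM replicates 2 and 3. Endothelial markers summed to at most 1.38 CPM, with Cdh5 and Kdr at 0. The immune markers Adgre1 and Cd3e were at 0, and the 5 immune markers summed to 45.2 to 59 CPM in TGFβ+NAM cells against 71.1 to 94.8 CPM in NAM cells, 78.7 to 93.6 CPM in TGFβ+SAM cells against 113 to 132 CPM in SAM cells, and 55.8 to 73.2 CPM in TGFβ cells against 100 to 102 CPM in control cells. The part of these markers in the collagen results was not tested, and in such bulk samples fewer cells of a type and less RNA per cell cannot be told apart.

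TGFβ raised most of the tested collagen chains and lowered a small set of type IV chains. Without a supplement, 12 of the 21 tested members were called higher in TGFβ than in control cells and 3 lower, 15 in all, where 19.4% of all tested genes were called, 9.7% higher and 9.74% lower. With NAM in both groups, 12 were higher and 2 lower in TGFβ+NAM than in NAM cells, where 21.9% of all genes were called, 10.9% higher and 11% lower. With SAM in both groups, 15 were higher and 2 lower in TGFβ+SAM than in SAM cells, where 28.4% of all genes were called, 14.2% in each direction. Leaving out SAM replicates 2 and 3 left 12 higher and 2 lower in that last comparison. These counts cover members that passed the read threshold, which a gene can pass through the group where it is high. The median log2 change of the 21 members was 1.40 with NAM, 2.04 with SAM and 1.15 without a supplement, against 0.00, 0.00 and 0.01 for all tested genes. The libraries of the TGFβ-treated and untreated group did not overlap for 17, 19 and 16 of the 21 members in that order, and for 34.2%, 38.9% and 36.2% of all genes.

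The 3 comparisons share no library, although they share 1 estimate of the spread. Of the 21 members, 12 were called in the same direction in all 3, that is 57.1% of those tested, against 12.7% of all genes. Leaving out SAM replicates 2 and 3 gave 12 again, of 23 members that then passed the read threshold, against 9.37% of all genes. The 10 that were higher each time were Col1a1, Col1a2, Col5a1, Col5a3, Col27a1, Col4a3, Col4a4, Col7a1, Col8a1 and Col16a1. Col4a1 and Col4a5 were lower each time. No member was called in opposite directions, and Col11a2 and Col6a3 were called in none of the 3.

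**Figure D1:**
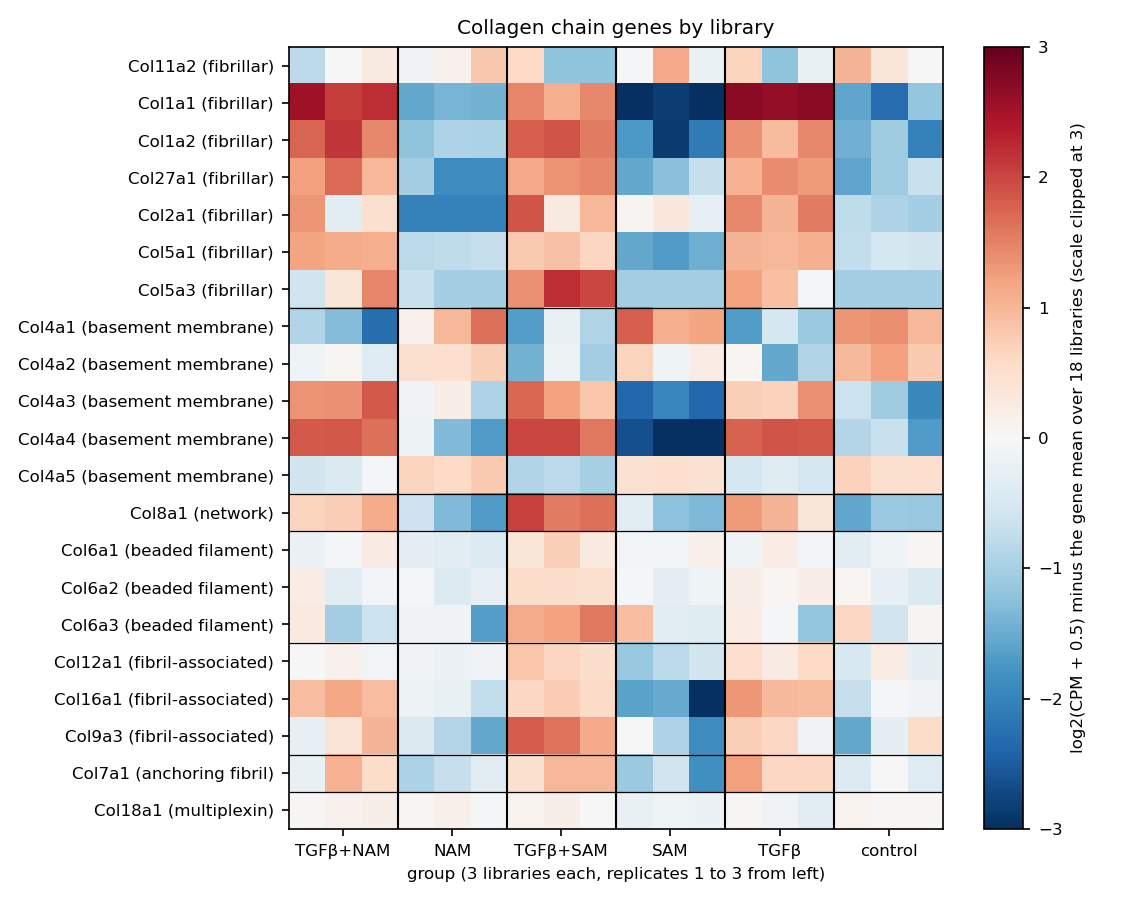
Expression of the 21 tested collagen chain genes in the 18 libraries, as log2(CPM + 0.5) minus the mean of the gene, with rows grouped by class and columns by treatment group. For Col1a1, Col1a2, Col5a1, Col27a1, Col4a4, Col8a1 and Col16a1 every TGFβ-treated library lies above the gene mean (red) and every untreated one below it (blue), and for Col4a1 and Col4a5 the reverse.

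Among fibrillar chains, 6 of the 7 tested were called higher in TGFβ than in control cells. Type I collagen, the main collagen of scar, is built from the products of Col1a1 and Col1a2. Col1a1 (GRCm38 chr11:94936224-94953042, plus strand) had 99.8, 72.0 and 79.3 CPM in TGFβ+NAM cells, against 5.37, 6.04 and 5.86 CPM in NAM cells. It had 46.4, 36.1 and 46.2 CPM in TGFβ+SAM cells, against 0.911, 1.88 and 1.55 CPM in SAM cells. Without a supplement it had 111, 106 and 111 CPM in TGFβ cells, against 5.22, 3.00 and 7.09 CPM in control cells. The treated and untreated libraries lie far apart in each pair, and SAM cells held the lowest values. The fitted log2 change was 3.85 ± 0.19 with NAM (adjusted p = 2.03e-19), 4.88 ± 0.25 with SAM (adjusted p = 2.62e-19) and 4.44 ± 0.20 without a supplement (adjusted p = 6.45e-21). Without SAM replicates 2 and 3 the change with SAM was 5.53 (adjusted p = 3.07e-13).

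Col1a2 (GRCm38 chr6:4504814-4541544, plus strand), which encodes the other chain of type I, responded in the same direction at lower read counts. Col1a2 had 27.0, 35.9 and 21.9 CPM in TGFβ+NAM cells, against 3.05, 3.86 and 3.77 CPM in NAM cells. With SAM it had 27.8, 29.7 and 23.6 CPM in TGFβ+SAM cells, against 1.97, 0.625 and 1.38 CPM in SAM cells. Cells without a supplement gave 20.7, 15.2 and 21.9 CPM in TGFβ cells, against 2.54, 3.43 and 1.52 CPM in control cells. Treated libraries were above untreated ones in each pair without overlap. On the log2 scale the change was 2.98 ± 0.28 with NAM, 4.32 ± 0.33 with SAM and 2.91 ± 0.30 without a supplement, with adjusted p of 3.19e-11, 5.19e-14 and 4.08e-10. With SAM replicates 2 and 3 left out, the change with SAM was 3.76 (adjusted p = 4.40e-08).

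Type V collagen sits inside type I fibrils and starts their assembly. Col5a1 (GRCm38 chr2:27886425-28039514, plus strand), which encodes its main chain, was the fibrillar chain with the most reads. Col5a1 had 206, 196 and 193 CPM in TGFβ+NAM cells, against 50.9, 52.7 and 55.9 CPM in NAM cells. In the SAM pair it had 156, 166 and 139.8 CPM in TGFβ+SAM cells, against 30.8, 27.2 and 32.2 CPM in SAM cells. With neither NAM nor SAM it had 183, 179 and 189 CPM in TGFβ cells, against 53.4, 62.5 and 61.3 CPM in control cells. The groups of each pair were separated, with little spread inside a group. The change was 1.90 ± 0.10 with NAM, 2.36 ± 0.11 with SAM and 1.64 ± 0.10 without a supplement on the log2 scale. The adjusted p was 1.92e-18, 6.11e-21 and 2.25e-16, and leaving out SAM replicates 2 and 3 gave 2.32 (adjusted p = 7.60e-14) with SAM. Exons of Col5a1 overlap 2810430I11Rik and Gm13372 on the other strand, and the sources used here do not say whether strand was used in counting.

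Col27a1 (GRCm38 chr4:63214004-63334991, plus strand) encodes a fibrillar chain best known from cartilage. Col27a1 had 34.9, 48.1 and 29.6 CPM in TGFβ+NAM cells, against 6.96, 3.60 and 3.63 CPM in NAM cells. It had 32.6, 37.7 and 40.2 CPM in TGFβ+SAM cells, against 4.71, 5.78 and 8.79 CPM in SAM cells. In the pair without a supplement it had 30.5, 39.8 and 35.9 CPM in TGFβ cells, against 4.51, 6.72 and 8.95 CPM in control cells. No treated library overlapped an untreated one. TGFβ changed it, on the log2 scale, by 3.00 ± 0.26, 2.53 ± 0.25 and 2.41 ± 0.25 with NAM, with SAM and without a supplement, with adjusted p of 2.60e-12, 1.00e-10 and 5.18e-10. Without SAM replicates 2 and 3 the change with SAM was 2.97 (adjusted p = 2.29e-07). SAM cells differed from control cells by a log2 change of -0.06 ± 0.28 and a 95% interval of -0.61 to 0.49, and by -0.50 (adjusted p = 0.597) without SAM replicates 2 and 3.

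The other fibrillar chains had few reads. Col5a3, a further type V chain, had 19 reads in TGFβ+NAM cells and 1 in NAM cells over the 3 libraries of each group, a ratio of 23.8 with a 95% counting interval of 3.78 to 988. It had 61 reads in TGFβ+SAM cells and 0 in SAM cells, which is 21-fold above a floor set at 3 counts over the group. In TGFβ cells Col5a3 had 22 reads against 0 in control cells, 8.96-fold above that floor. Both figures take the reads of the higher group as exact. Col5a3 was called in all 3 comparisons (adjusted p = 0.0233, 0.000257 and 0.0059). With NAM it was not called once NAM replicate 2 (0.099), NAM replicate 3 (0.0926) or TGFβ+NAM replicate 3 (0.206) was left out. Without both NAM replicate 3 and TGFβ+NAM replicate 1 it was 0.0501. With SAM it was 0.045 without SAM replicates 2 and 3.

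Col2a1, the cartilage fibrillar chain, averaged 2.69 ± 1.77 CPM in TGFβ+NAM cells and had no read in NAM cells (adjusted p = 2.32e-05). Taking its reads in TGFβ+NAM cells as exact, it was 19.2-fold above the floor of 3 counts. It averaged 4.21 ± 2.62 CPM in TGFβ+SAM cells and 1.64 ± 0.414 CPM in SAM cells (SD, n = 3 each), which did not pass the test (1.34 ± 0.65 log2, adjusted p = 0.126; 1.32, adjusted p = 0.419 without SAM replicates 2 and 3). In TGFβ cells it averaged 4.69 ± 0.9495 CPM against 0.595 ± 0.101 CPM in control cells (2.93 ± 0.72 log2, adjusted p = 0.00252). Col11a2, a cartilage chain of type XI, averaged 0.413 to 1.17 CPM over the 6 groups and was not called in any comparison.

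**Figure D2:**
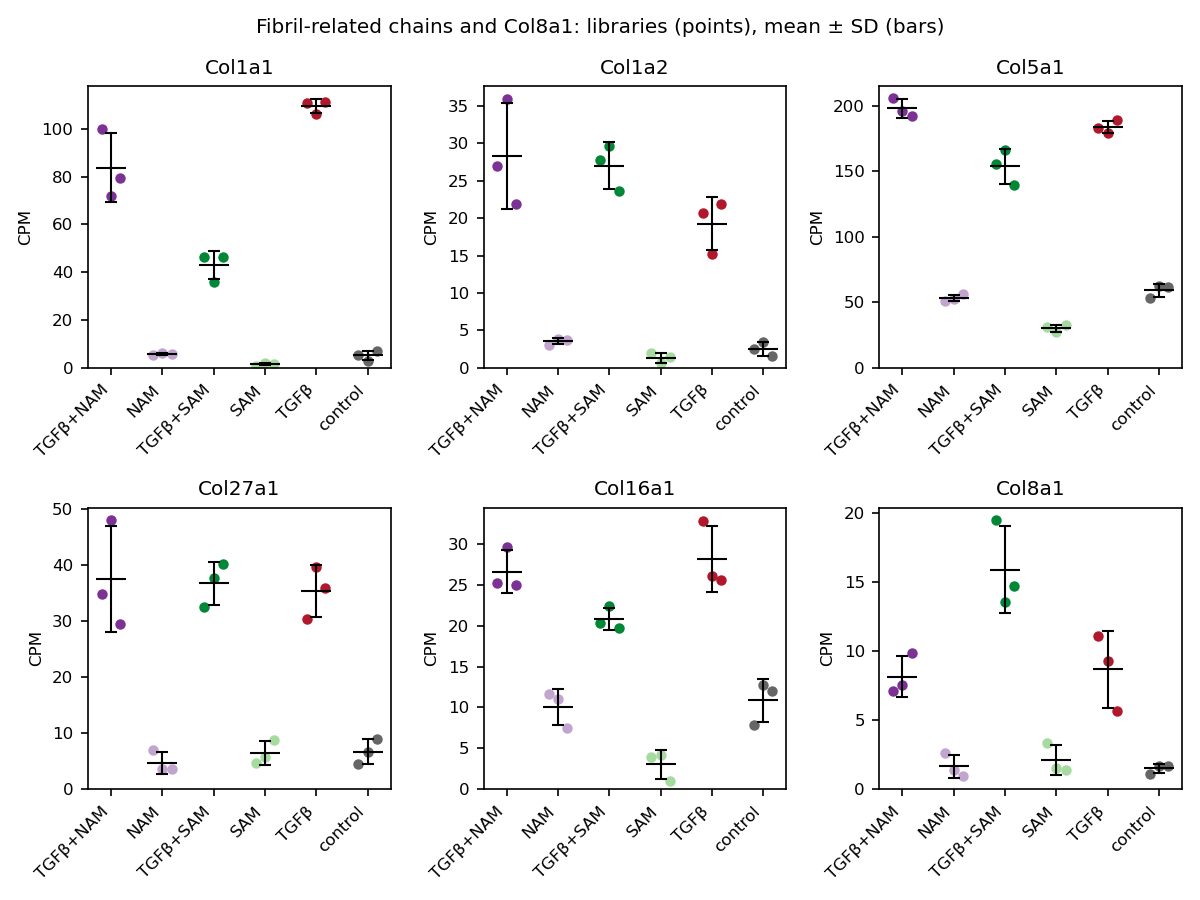
CPM in each library (points) with the mean and SD (bars) for Col1a1, Col1a2, Col5a1, Col27a1, Col16a1 and Col8a1 in the 6 groups. In every panel the TGFβ-treated points lie above the untreated points of the same supplement; for Col1a1 the TGFβ+SAM points (36.1 to 46.4 CPM) lie below the TGFβ points (106 to 111 CPM).

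Type IV chains of the basement membrane split in direction. Col4a3 and Col4a4 were called higher and Col4a1 and Col4a5 lower in all 3 TGFβ comparisons. The type IV genes lie in head-to-head pairs. In the GRCm38 annotation (GENCODE M21), Col4a1 (chr8:11198423-11312826, minus strand) and Col4a2 (chr8:11312805-11449287, plus strand) overlap at their starts. Col4a4 (chr1:82448423-82586849, minus strand) and Col4a3 (chr1:82586921-82722059, plus strand) start 72 bases apart. Col4a6 and Col4a5, on the X chromosome, start 1309 bases apart. Promoter windows of Col4a1, Col4a2 and Col4a4 are shown because both genes of these 2 pairs had log2 changes of the same sign in all 3 TGFβ comparisons; Col4a3 is named only. Each runs from 250 bases before to 50 bases after the start in RefSeq (GRCm38.p6). In the first 2 windows capitals mark the 78 bases that Col4a1 and Col4a2 share on opposite strands. In that of Col4a4 they mark GTCTG, the complement of the SMAD-binding element CAGAC. The window of Col4a2 holds CAGAC as well, left in lower case, and that of Col4a1 holds neither.
Col4a1, chr8:11312777-11313076, minus strand: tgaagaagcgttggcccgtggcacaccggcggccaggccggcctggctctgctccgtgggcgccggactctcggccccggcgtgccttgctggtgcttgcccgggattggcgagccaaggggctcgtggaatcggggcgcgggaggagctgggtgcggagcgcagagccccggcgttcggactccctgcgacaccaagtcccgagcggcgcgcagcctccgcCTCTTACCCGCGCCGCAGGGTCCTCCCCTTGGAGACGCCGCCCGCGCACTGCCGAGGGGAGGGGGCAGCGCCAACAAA
Col4a2, chr8:11312555-11312854, plus strand: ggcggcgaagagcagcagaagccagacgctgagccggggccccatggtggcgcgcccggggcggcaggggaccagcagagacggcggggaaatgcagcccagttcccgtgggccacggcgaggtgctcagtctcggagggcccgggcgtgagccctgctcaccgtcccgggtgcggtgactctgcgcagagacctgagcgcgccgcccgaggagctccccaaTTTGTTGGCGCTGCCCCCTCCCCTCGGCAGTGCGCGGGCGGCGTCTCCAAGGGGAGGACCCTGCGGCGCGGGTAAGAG
Col4a4, chr1:82586800-82587099, minus strand: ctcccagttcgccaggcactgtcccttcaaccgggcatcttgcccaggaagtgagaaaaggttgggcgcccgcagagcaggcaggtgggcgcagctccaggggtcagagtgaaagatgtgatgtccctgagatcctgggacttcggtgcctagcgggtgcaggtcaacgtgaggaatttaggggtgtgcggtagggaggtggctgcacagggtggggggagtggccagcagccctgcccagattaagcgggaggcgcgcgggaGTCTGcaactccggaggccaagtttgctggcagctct

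Of the type IV chains that rose, Col4a4 had the most reads. Col4a4 had 44.3, 44.9 and 39.1 CPM in TGFβ+NAM cells, against 10.9, 4.50 and 3.35 CPM in NAM cells. With SAM it had 49.96, 49.92 and 36.93 CPM in TGFβ+SAM cells, against 1.52, 0.625 and 0.345 CPM in SAM cells. Without a supplement it had 42.3, 45.9 and 45.2 CPM in TGFβ cells, against 6.34, 7.44 and 3.38 CPM in control cells. All TGFβ-treated groups reached similar values, whereas untreated groups differed, with SAM cells lowest. The log2 change was 2.79 ± 0.26 with NAM (adjusted p = 3.91e-11), 5.71 ± 0.36 with SAM (adjusted p = 1.95e-16) and 2.94 ± 0.27 without a supplement (adjusted p = 1.79e-11). With SAM it rested on 16 reads in SAM cells, and it was 6.48 without SAM replicate 1 and 4.89 without SAM replicates 2 and 3 (adjusted p = 7.64e-10). With NAM it was 3.44 without NAM replicate 1.

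Its neighbour Col4a3 was low in untreated cells. Col4a3 had 6.03, 6.09 and 8.61 CPM in TGFβ+NAM cells, against 1.89, 2.44 and 0.837 CPM in NAM cells. In the SAM pair it had 7.97, 5.38 and 4.03 CPM in TGFβ+SAM cells, against 0, 0.156 and 0 CPM in SAM cells. Cells without a supplement gave 3.71, 3.61 and 6.14 CPM in TGFβ cells, against 1.13, 0.715 and 0.169 CPM in control cells. In each pair the treated libraries lay above the untreated ones. Its log2 change was 1.99 ± 0.56 with NAM (adjusted p = 0.00688), which was not called once both NAM replicate 3 and TGFβ+NAM replicate 1 were left out (0.0566). It was 2.65 ± 0.63 without a supplement (adjusted p = 0.00158). With SAM the 104 reads in TGFβ+SAM cells and 1 read in SAM cells give a ratio of 107 with a counting interval of 18.8 to 4280 (adjusted p = 3.60e-07, and 0.000316 without SAM replicates 2 and 3). Exons of Col4a3 overlap C430014B12Rik on the other strand.

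Col4a1 moved the other way at low levels. Col4a1 had 1.24, 0.801 and 0.179 CPM in TGFβ+NAM cells, against 3.05, 5.91 and 9.62 CPM in NAM cells. It had 0.532, 2.28 and 1.24 CPM in TGFβ+SAM cells, against 10.6, 6.41 and 6.90 CPM in SAM cells. With neither NAM nor SAM it had 0.506, 1.73 and 0.983 CPM in TGFβ cells, against 7.61, 8.01 and 5.91 CPM in control cells. The treated libraries were below the untreated ones in each pair. The fitted log2 change was -3.03 ± 0.59 with NAM (adjusted p = 0.000108), -2.53 ± 0.54 with SAM (adjusted p = 0.000263) and -2.70 ± 0.56 without a supplement (adjusted p = 0.000306). The last was -3.30 without TGFβ replicate 2, and with SAM it was -2.94 without SAM replicates 2 and 3 (adjusted p = 0.00107).

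Its partner Col4a2 was called in TGFβ against control cells only, among these 3 comparisons. Col4a2 had 2.48, 2.89 and 1.97 CPM in TGFβ+NAM cells, against 4.06, 4.11 and 4.88 CPM in NAM cells. With SAM it had 0.709, 2.45 and 1.09 CPM in TGFβ+SAM cells, against 4.71, 2.50 and 3.28 CPM in SAM cells. In the pair without a supplement it had 2.86, 0.629 and 1.23 CPM in TGFβ cells, against 5.92, 7.15 and 5.07 CPM in control cells. The treated libraries were below the untreated ones in all 3 pairs. On the log2 scale the change was -0.82 ± 0.53 with NAM (adjusted p = 0.3), -1.29 ± 0.56 with SAM (adjusted p = 0.0857) and -1.92 ± 0.55 without a supplement (adjusted p = 0.00966). The last did not pass without TGFβ replicate 2 (-1.51, adjusted p = 0.0753) and was -2.74 without TGFβ replicate 1. Neither interaction passed for Col4a2, so the 3 responses are not shown to differ. Exons of Col4a2 overlap those of Col4a1 and Gm15419 on the other strand.

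Col4a5 was the type IV chain with the most reads, and it fell in all 3 comparisons. Col4a5 had 53.9, 57.9 and 77.1 CPM in TGFβ+NAM cells, against 125, 119 and 135 CPM in NAM cells. In the SAM pair it had 42.0, 45.5 and 39.3 CPM in TGFβ+SAM cells, against 109, 112 and 108 CPM in SAM cells. Without a supplement it had 54.3, 61.4 and 54.8 CPM in TGFβ cells, against 127, 109 and 112 CPM in control cells. The spread inside groups was small beside the gap between them. Its log2 change was -1.01 ± 0.12 with NAM, -1.37 ± 0.12 with SAM and -1.03 ± 0.12 without a supplement (adjusted p = 5.19e-09, 2.79e-12 and 5.44e-09). Leaving out SAM replicates 2 and 3 gave -1.37 with SAM (adjusted p = 3.07e-08). Col4a3, Col4a4 and Col4a5 encode chains that join in 1 helix, and the ratio of their reads, Col4a5 to Col4a4, was formed after these values were seen. It was 1.46 in TGFβ+NAM cells against 20.6 in NAM cells, 0.931 in TGFβ+SAM cells against 129 in SAM cells, and 1.29 in TGFβ cells against 19.9 in control cells. The ratio in SAM cells rested on 16 reads of Col4a4 and was 71.8, 179 and 312 by library. By library the ratio was 11.5, 26.3 and 40.5 in NAM cells and 20, 14.7 and 33 in control cells. It is a ratio of reads, not of molecules, and carries no test. The reads of Col4a6, the remaining type IV chain, were too few to test: 64 over all libraries.

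**Figure D3:**
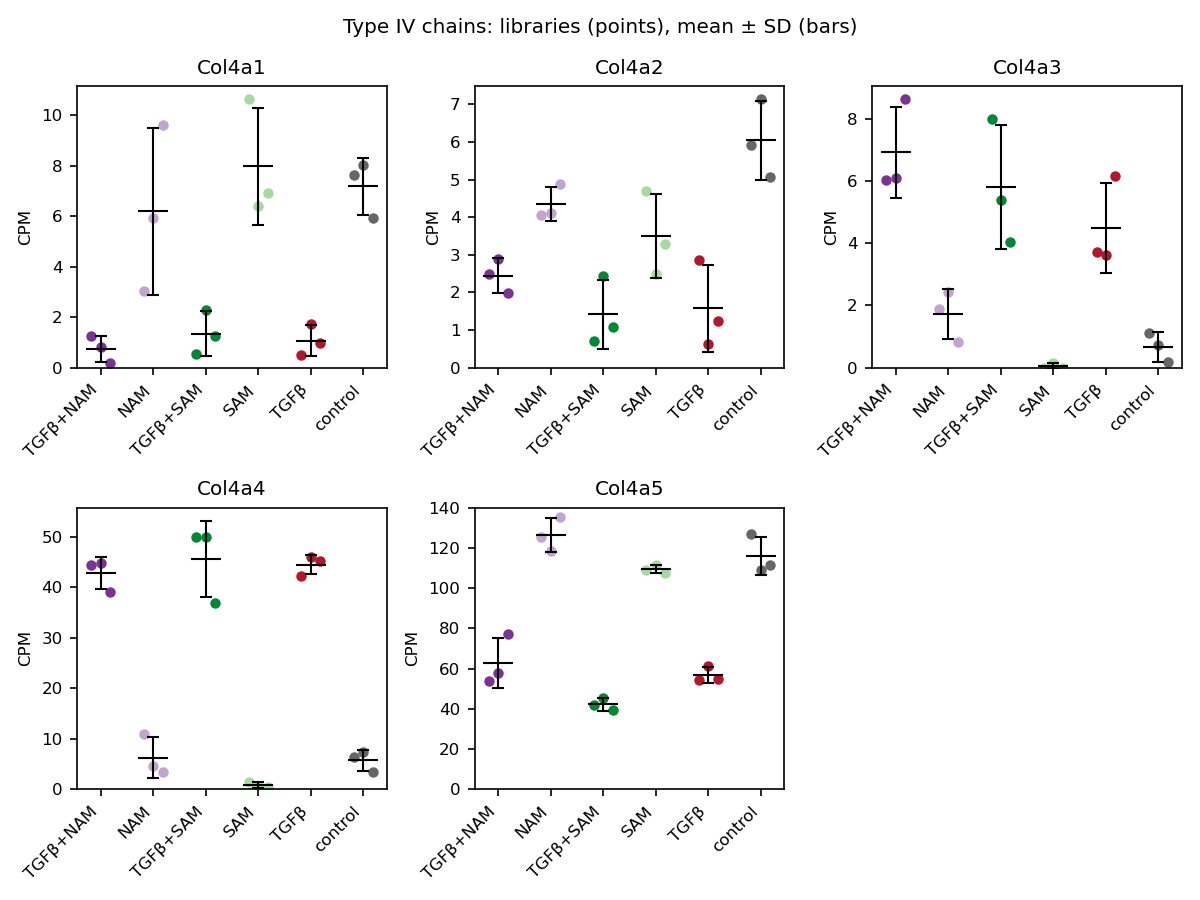
CPM in each library (points) with the mean and SD (bars) for the 5 tested type IV chains. The TGFβ-treated points lie above the untreated points of the same supplement for Col4a3 and Col4a4 and below them for Col4a1, Col4a2 and Col4a5.

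The network-forming chain Col8a1 (GRCm38 chr16:57624258-57754737, minus strand), known from vessel walls and the cornea, was higher with TGFβ. Col8a1 had 7.09, 7.53 and 9.87 CPM in TGFβ+NAM cells, against 2.61, 1.41 and 0.976 CPM in NAM cells. It had 19.5, 13.5 and 14.7 CPM in TGFβ+SAM cells, against 3.34, 1.56 and 1.38 CPM in SAM cells. Cells without a supplement gave 11.1, 9.27 and 5.65 CPM in TGFβ cells, against 1.13, 1.72 and 1.69 CPM in control cells. The groups did not overlap in any pair. TGFβ changed it, on the log2 scale, by 2.29 ± 0.41 with NAM, 2.90 ± 0.40 with SAM and 2.53 ± 0.42 without a supplement (adjusted p = 3.79e-05, 2.11e-07 and 1.24e-05). It was 2.25 with SAM when SAM replicates 2 and 3 were left out (adjusted p = 0.0025).

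Col16a1 (GRCm38 chr4:130047840-130099283, plus strand), a fibril-associated chain, was higher with TGFβ in all 3 comparisons. Col16a1 had 25.2, 29.7 and 24.9 CPM in TGFβ+NAM cells, against 11.6, 11.1 and 7.53 CPM in NAM cells. With SAM it had 20.4, 22.4 and 19.7 CPM in TGFβ+SAM cells, against 3.95, 4.22 and 1.03 CPM in SAM cells. With neither NAM nor SAM it had 32.9, 26.1 and 25.6 CPM in TGFβ cells, against 7.89, 12.7 and 12.0 CPM in control cells. No libraries overlapped between the groups of a pair. The log2 change was 1.40 ± 0.25 with NAM, 2.73 ± 0.29 with SAM and 1.38 ± 0.25 without a supplement (adjusted p = 2.70e-05, 4.90e-10 and 4.12e-05), and 2.39 with SAM without SAM replicates 2 and 3 (adjusted p = 6.13e-06).

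Col12a1, which binds the surface of type I fibrils, averaged 19.4 ± 1.57 CPM in TGFβ+NAM cells and 17.6 ± 0.558 CPM in NAM cells (SD, n = 3 each), with a log2 change of 0.14 ± 0.20 that did not pass (adjusted p = 0.684, 95% interval -0.25 to 0.54). It averaged 31.0 ± 3.52 CPM in TGFβ+SAM cells and 10.7 ± 2.21 CPM in SAM cells, and rose by 1.53 ± 0.21 (adjusted p = 1.20e-07; 1.86 without SAM replicates 2 and 3). Without a supplement it averaged 26.7 ± 3.29 CPM in TGFβ cells and 17.4 ± 4.60 CPM in control cells, a log2 change of 0.62 ± 0.20 (adjusted p = 0.0232). That call was lost when control replicate 1 (0.152), control replicate 3 (0.109), TGFβ replicate 1 (0.0727) or TGFβ replicate 3 (0.0953) was left out. Col9a3, a cartilage chain, averaged 4.94 ± 1.25 CPM in TGFβ+SAM cells and 0.612 ± 0.695 CPM in SAM cells. It was called in that comparison (2.94 ± 0.83 log2, adjusted p = 0.0057), but not without SAM replicates 2 and 3 (1.84, adjusted p = 0.296), and its change was 4.24 without SAM replicate 1. Col9a3 was not called with NAM (1.99 ± 0.86 log2, adjusted p = 0.0956) or without a supplement (0.92 ± 0.80 log2, adjusted p = 0.496). For Col9a3 and Col12a1 neither interaction passed, so the 3 responses of each are not shown to differ. Exons of Col9a3 overlap Tcfl5 on the other strand.

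Col7a1, the chain of the anchoring fibrils that fasten basement membranes to the tissue below, rose as well. Col7a1 had 8.87, 22.1 and 15.4 CPM in TGFβ+NAM cells, against 5.22, 6.30 and 8.23 CPM in NAM cells. In the SAM pair it had 14.7, 21.5 and 21.3 CPM in TGFβ+SAM cells, against 4.56, 6.72 and 2.59 CPM in SAM cells. In the pair without a supplement it had 25.3, 16.3 and 16.2 CPM in TGFβ cells, against 7.75, 10.4 and 7.94 CPM in control cells. The groups did not overlap in any of the pairs. Its log2 change was 1.23 ± 0.30 with NAM (adjusted p = 0.00205), 2.04 ± 0.32 with SAM (adjusted p = 1.95e-06) and 1.15 ± 0.30 without a supplement (adjusted p = 0.00376). Without SAM replicates 2 and 3 it was 2.07 with SAM (adjusted p = 0.000874). With NAM it was not called without TGFβ+NAM replicate 2 (0.88, adjusted p = 0.0555), and without a supplement it was not called without TGFβ replicate 1 (0.90, adjusted p = 0.0593).

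The beaded-filament chains of type VI and the endostatin-bearing chain Col18a1 were called in some comparisons and not in others. Col6a1 averaged 79.0 ± 11.9 CPM in TGFβ+NAM cells against 61.5 ± 3.28 in NAM cells, 108 ± 17.6 in TGFβ+SAM cells against 77.7 ± 8.11 in SAM cells, and 78.7 ± 11.0 in TGFβ cells against 70.8 ± 9.77 in control cells. Its log2 change was 0.36 ± 0.13, 0.48 ± 0.13 and 0.16 ± 0.13 in that order (adjusted p = 0.042, 0.0041 and 0.474). For Col6a1 neither interaction passed, so these 3 responses are not shown to differ. With NAM the call was lost without any 1 of NAM replicates 1, 2 and 3 (0.0563, 0.0828 and 0.122), TGFβ+NAM replicate 2 (0.0584) or TGFβ+NAM replicate 3 (0.282), and also with DESeq2 (0.0578), unscaled library totals (0.0928), a fit of only the groups compared (0.0588) and without SAM replicates 2 and 3 (0.0542). With SAM it was lost without TGFβ+SAM replicate 2 (0.0757) and remained at 0.57 without SAM replicates 2 and 3 (adjusted p = 0.0371).

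Col6a2 averaged 65.6 ± 1.61 CPM in TGFβ+SAM cells and 41.1 ± 3.57 CPM in SAM cells and was called in that comparison alone of the 3 (0.67 ± 0.14 log2, adjusted p = 0.000309), but not without SAM replicates 2 and 3 (adjusted p = 0.0586). In TGFβ cells it averaged 51.1 ± 2.79 CPM against 39.9 ± 7.14 CPM in control cells (0.35 ± 0.15 log2, adjusted p = 0.0869). For Col6a2 neither interaction passed. Col6a3, whose product is the largest type VI chain, averaged 7.79 ± 1.47 CPM in TGFβ+SAM cells and 3.34 ± 2.10 CPM in SAM cells without passing the test (1.21 ± 0.55 log2, adjusted p = 0.0979; 0.44, adjusted p = 0.756 without SAM replicates 2 and 3). Col18a1, a basement membrane collagen with the most reads of any member, averaged 278 ± 18.5 CPM in TGFβ+SAM cells and 231 ± 7.18 CPM in SAM cells. That difference of 0.26 ± 0.09 was called (adjusted p = 0.0236), though not without SAM replicate 1 (0.0821), SAM replicate 3 (0.0593), both SAM replicates 2 and 3 (0.12), TGFβ+SAM replicate 1 (0.0654) or TGFβ+SAM replicate 2 (0.109). In TGFβ cells it averaged 240.3 ± 32.3 CPM against 272 ± 7.71 CPM in control cells, with a 95% interval of -0.35 to 0.00 for the log2 change.

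**Figure D4:**
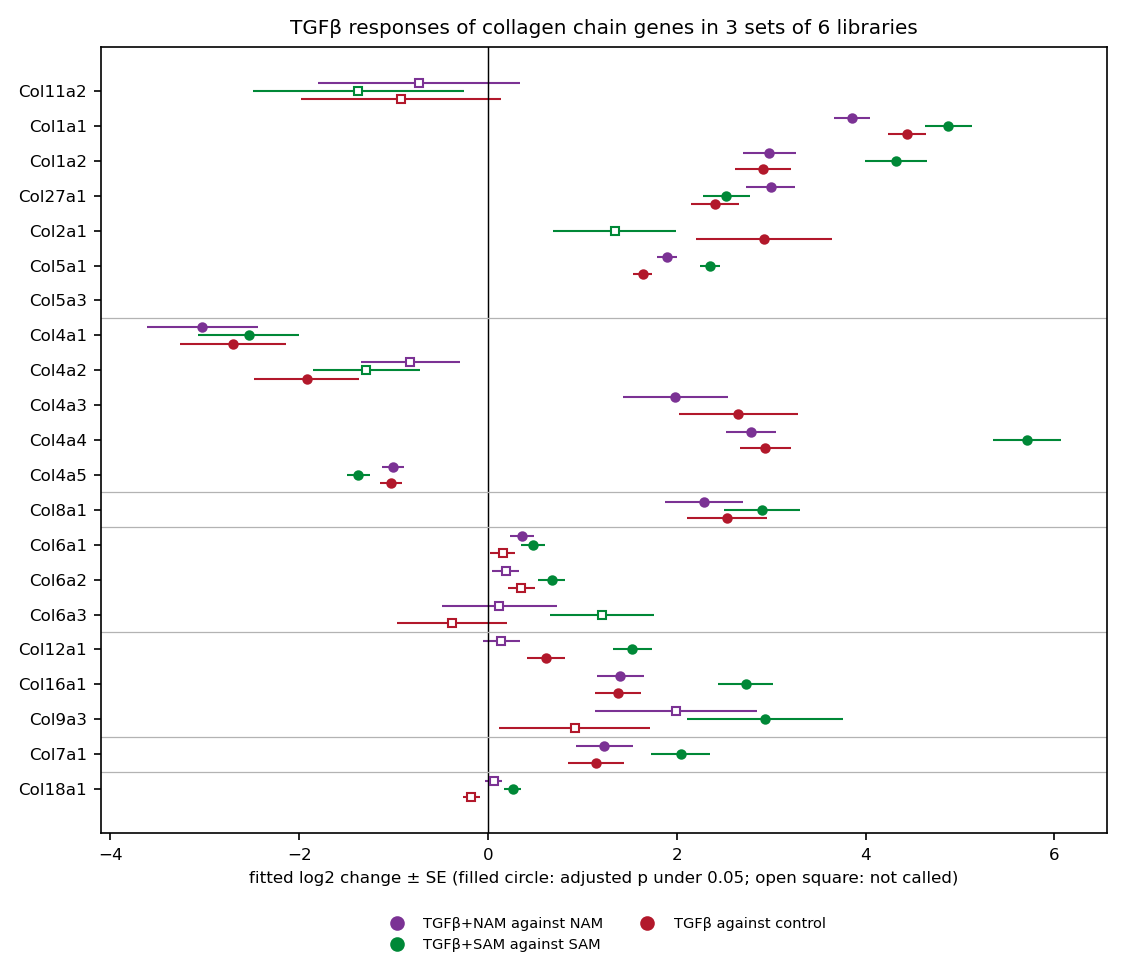
Fitted log2 change ± SE of each tested member in TGFβ+NAM against NAM, TGFβ+SAM against SAM and TGFβ against control cells; filled circles were called, open squares were not, and comparisons with a group of 3 or fewer reads are not drawn. The changes lie to the right of 0 for most fibrillar chains and for Col4a3, Col4a4 and Col8a1, and to the left for Col4a1, Col4a2 and Col4a5.

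The 23 members below the read threshold were spread over the classes. No read was found in any library for 14 of them: Col24a1, Col10a1, Col6a4, Col6a5, Col6a6, Col9a1, Col9a2, Col14a1, Col19a1, Col13a1, Col17a1, Col23a1, Col25a1 and Col26a1. All 4 transmembrane chains are among them. Of the other 9, Col11a1 had 64 reads, of which 47 were in TGFβ+NAM cells and 0 in NAM cells. Col15a1 had 63, Col4a6 64, Col5a2 26, Col22a1 18, Col20a1 11, Col28a1 6 and Col8a2 3. Col3a1, which encodes the type III collagen found with type I in scar, had 17 reads over all 18 libraries. Of these, 4 were in TGFβ+NAM cells against 1 in NAM cells, 2 in TGFβ+SAM cells against 0 in SAM cells and 9 in TGFβ cells against 1 in control cells. A count of 0 still allows up to 3 counts over a group.

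Summed over classes, the fibrillar chains made up most of the difference between groups. All 44 chains together summed to 953 ± 11.1 CPM in TGFβ+NAM cells and 624 ± 12.7 CPM in NAM cells, 919 ± 59.3 CPM in TGFβ+SAM cells and 540.1 ± 6.35 CPM in SAM cells, and 923 ± 35.8 CPM in TGFβ cells and 638 ± 4.34 CPM in control cells (SD, n = 3 each). The 11 fibrillar chains summed to 355 ± 20.8 CPM in TGFβ+NAM cells and 68.3 ± 2.12 CPM in NAM cells, 269.7 ± 10.2 CPM in TGFβ+SAM cells and 42.0 ± 3.27 CPM in SAM cells, and 356 ± 9.91 CPM in TGFβ cells and 75.5 ± 6.27 CPM in control cells. The 6 basement membrane chains summed to 116 ± 9.88 CPM in TGFβ+NAM cells and 146 ± 9.18 CPM in NAM cells, 97.1 ± 12.1 CPM in TGFβ+SAM cells and 123 ± 3.65 CPM in SAM cells, and 109 ± 4.82 CPM in TGFβ cells and 136 ± 10.7 CPM in control cells. Fibrillar sums were higher and the basement membrane sums, which hold type IV chains only, lower in each TGFβ-treated group than in its untreated partner. Col18a1, a basement membrane collagen of another class, is not in those sums. It averaged 283 CPM in TGFβ+NAM and 272 CPM in NAM cells, and 278 CPM in TGFβ+SAM and 231 CPM in SAM cells. Without a supplement it averaged 240 CPM in TGFβ and 272 CPM in control cells. The beaded-filament chains summed to 125 ± 11.6 CPM in TGFβ+NAM cells and 102 ± 7.76 CPM in NAM cells, 181 ± 17.2 CPM in TGFβ+SAM cells and 122 ± 9.36 CPM in SAM cells, and 132 ± 8.43 CPM in TGFβ cells and 114 ± 3.17 CPM in control cells. These sums add reads of genes with different numbers of reads per molecule and were not tested.

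Nicotinamide changed no collagen chain beyond the threshold. In NAM against control cells 0 of 21 members were called by edgeR, where 0.00742% of all genes were called, and DESeq2 called 0 as well. An unadjusted p under 0.05 was found for 1 member and for 722 of the 13469 tested genes. In TGFβ+NAM against TGFβ cells 0 members were called by both tools, where 0.0817% of all genes were called (0.0297% higher and 0.052% lower). There 4 members and 932 of the 13469 tested genes had an unadjusted p under 0.05. The median log2 change of the members was -0.11 without TGFβ and -0.08 with it, against 0.00 for all genes in both. Libraries of the compared groups did not overlap for 2 members without TGFβ and 4 with it, where 13.5% and 11.8% of all genes did not overlap. Intervals, which are not adjusted for the number of genes, were narrow for the chains with many reads. For Col5a1 the 95% interval of the log2 change was -0.08 to 0.30 with TGFβ and -0.36 to 0.05 without it. For Col4a5 it was -0.09 to 0.38 and -0.09 to 0.34, and for Col18a1 0.06 to 0.41 and -0.18 to 0.17. Col1a1 averaged 83.7 ± 14.4 CPM in TGFβ+NAM cells and 109 ± 2.91 CPM in TGFβ cells, a log2 difference of -0.39 ± 0.15 (adjusted p = 0.555, 95% interval -0.69 to -0.09). Col1a2 averaged 28.2 ± 7.10 CPM in TGFβ+NAM cells and 19.3 ± 3.54 CPM in TGFβ cells, with a difference of 0.56 ± 0.25 (adjusted p = 0.627). Col2a1 had no read in NAM cells against 12 in control cells and was not called (adjusted p = 0.531). Taken as exact and scaled for library size, the 12 reads were 4.37-fold above the floor of 3 counts. The test of whether NAM altered the TGFβ response called 0 members and 0% of all genes, with 2 members and 462 genes at an unadjusted p under 0.05, and DESeq2 called 0 members.

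SAM alone went with lower levels of several chains. In SAM against control cells 6 of the 21 members were called lower and 0 higher, where 11.8% of all genes were called, 5.02% higher and 6.79% lower. Leaving out SAM replicates 2 and 3 left 3 lower members, and leaving out 1 library at a time left 4 to 7. The median log2 change of the members was -0.23, against 0.00 for all genes, and -0.36 over the 23 members tested without SAM replicates 2 and 3. The groups did not overlap for 10 members and for 31.6% of all genes. Col5a1 averaged 30.1 ± 2.60 CPM in SAM cells and 59.1 ± 4.93 CPM in control cells, and fell by 0.97 on the log2 scale (SE 0.11, adjusted p = 1.74e-08). Col1a1 averaged 1.45 ± 0.491 CPM in SAM cells and 5.10 ± 2.05 CPM in control cells (-1.79 ± 0.32 log2, adjusted p = 0.000113). Col16a1 averaged 3.07 ± 1.77 CPM in SAM cells and 10.9 ± 2.61 CPM in control cells (-1.79 ± 0.30 log2, adjusted p = 3.47e-05). These 3 remained called without SAM replicates 2 and 3, at -0.94, -2.44 and -1.46 with adjusted p of 0.000229, 0.00376 and 0.0215.

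Col4a4 averaged 0.830 ± 0.613 CPM in SAM cells and 5.72 ± 2.10 CPM in control cells (-2.74 ± 0.44 log2, adjusted p = 1.60e-05). This was -3.51 without SAM replicate 1 and just missed the threshold without SAM replicates 2 and 3 (-1.92, adjusted p = 0.0504). Its neighbour Col4a3 had 1 read in SAM cells against 14 in control cells, a ratio of 0.0761 with a counting interval of 0.0018 to 0.50. Its adjusted p of 0.0464 was at least 0.0927 without control replicate 1 or 2 or SAM replicate 1 or 3, was 0.202 without SAM replicates 2 and 3, and lay between 0.0502 and 0.0511 without TGFβ replicate 1 or TGFβ+NAM replicate 2 or 3. It was 0.0505 with DESeq2 and 0.051 without a read threshold. Col12a1 averaged 10.7 ± 2.21 CPM in SAM cells and 17.4 ± 4.60 CPM in control cells (-0.70 ± 0.21 log2, adjusted p = 0.0226). It was not called without control replicate 2 (0.245), SAM replicate 1 (0.133), SAM replicate 2 (0.0555) or both SAM replicates 2 and 3 (0.0547). Col1a2 did not pass (-0.92 ± 0.40 log2, adjusted p = 0.145; -0.36, adjusted p = 0.802 without those libraries), nor did Col7a1 (-0.90 ± 0.33, adjusted p = 0.0652) or Col18a1 (-0.23 ± 0.09, adjusted p = 0.0866).

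With TGFβ present, SAM went with a lower level of Col1a1. In TGFβ+SAM against TGFβ cells 1 member was called higher and 2 lower (2 and 2 without SAM replicates 2 and 3), where 7.32% of all genes were called, 3.07% higher and 4.25% lower. The groups did not overlap for 11 of the 21 members and for 23.1% of all genes, and the median log2 change was 0.21 for the members and -0.01 for all genes. Col1a1 had 46.4, 36.1 and 46.2 CPM in TGFβ+SAM cells, against 111, 106 and 111 CPM in TGFβ cells, a difference of -1.35 ± 0.16 on the log2 scale (adjusted p = 3.48e-08). Col1a2 had 27.8, 29.7 and 23.6 CPM in TGFβ+SAM cells, against 20.7, 15.2 and 21.9 CPM in TGFβ cells, a difference of 0.49 ± 0.25 that did not pass (adjusted p = 0.25). Reads of Col1a1 per read of Col1a2, formed after these values were seen, were 2.92 in TGFβ+NAM cells, 1.59 in TGFβ+SAM cells and 5.78 in TGFβ cells, from sums over 3 libraries. By library they were 3.70, 2.00 and 3.62 in TGFβ+NAM cells, 1.67, 1.21 and 1.96 in TGFβ+SAM cells, and 5.35, 6.96 and 5.09 in TGFβ cells. The untreated groups, with fewer reads of both genes, gave 1.76, 1.57 and 1.56 in NAM cells and 0.462, 3 and 1.12 in SAM cells. Control cells gave 2.06, 0.875 and 4.67, a wide spread inside 1 group. The TGFβ values lie above all the others, and no test was run on them.

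Col4a5 was lower in TGFβ+SAM than in TGFβ cells (-0.43 ± 0.12 log2, adjusted p = 0.0246), a call that was lost in a fit of only the groups compared (0.0548) and without TGFβ replicate 2 (0.122), TGFβ+SAM replicate 1 (0.071) or TGFβ+SAM replicate 3 (0.0803). Col6a1 was higher by 0.45 ± 0.13 (adjusted p = 0.0235), and this was lost without TGFβ replicate 1 (0.149), TGFβ replicate 3 (0.117) or TGFβ+SAM replicate 2 (0.235). Col4a4, which was lower with SAM in the absence of TGFβ, had 49.96, 49.92 and 36.93 CPM in TGFβ+SAM cells, against 42.3, 45.9 and 45.2 CPM in TGFβ cells. That log2 difference was 0.04 ± 0.23 with a 95% interval of -0.41 to 0.48. For Col5a1 the difference was -0.26 ± 0.10 (adjusted p = 0.104), for Col8a1 0.86 ± 0.35 (adjusted p = 0.147) and for Col6a3 1.69 ± 0.57 (adjusted p = 0.0626), none of which passed. Without SAM replicates 2 and 3, which enter only through the shared spread, Col6a3 did pass (1.69, adjusted p = 0.049).

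Whether the TGFβ response itself differed with SAM was tested as an interaction, the log2 change of TGFβ+SAM against SAM minus that of TGFβ against control. It called 2 of the 21 members, both higher, where 1.43% of all genes were called (0.802% higher and 0.631% lower), and the median over members was 0.63 against 0.00 over all genes, and 0.82 over the 23 members tested without SAM replicates 2 and 3. Col4a4 had an interaction of 2.78 ± 0.50 (adjusted p = 0.000718), that is, a larger rise with SAM, and Col5a1 0.72 ± 0.15 (adjusted p = 0.00365). Both rises started from lower levels in SAM than in control cells. These were 0.830 against 5.72 CPM for Col4a4 and 30.1 against 59.1 CPM for Col5a1. The interaction of Col4a4 was 3.55 without SAM replicate 1. Without SAM replicates 2 and 3 no member was called: Col4a4 was at 1.97 (adjusted p = 0.181) and Col5a1 at 0.69 (adjusted p = 0.092). DESeq2 called 4 members and so did edgeR without NAM replicate 3, adding Col16a1 and Col18a1 to these. In edgeR with all libraries those 2 had 1.35 ± 0.39 (adjusted p = 0.0668) and 0.44 ± 0.13 (adjusted p = 0.0743). For Col1a1 the interaction was 0.44 ± 0.37 (adjusted p = 0.746), with a 95% interval of -0.28 to 1.16, and 1.10 (adjusted p = 0.657) without SAM replicates 2 and 3.

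**Figure D5:**
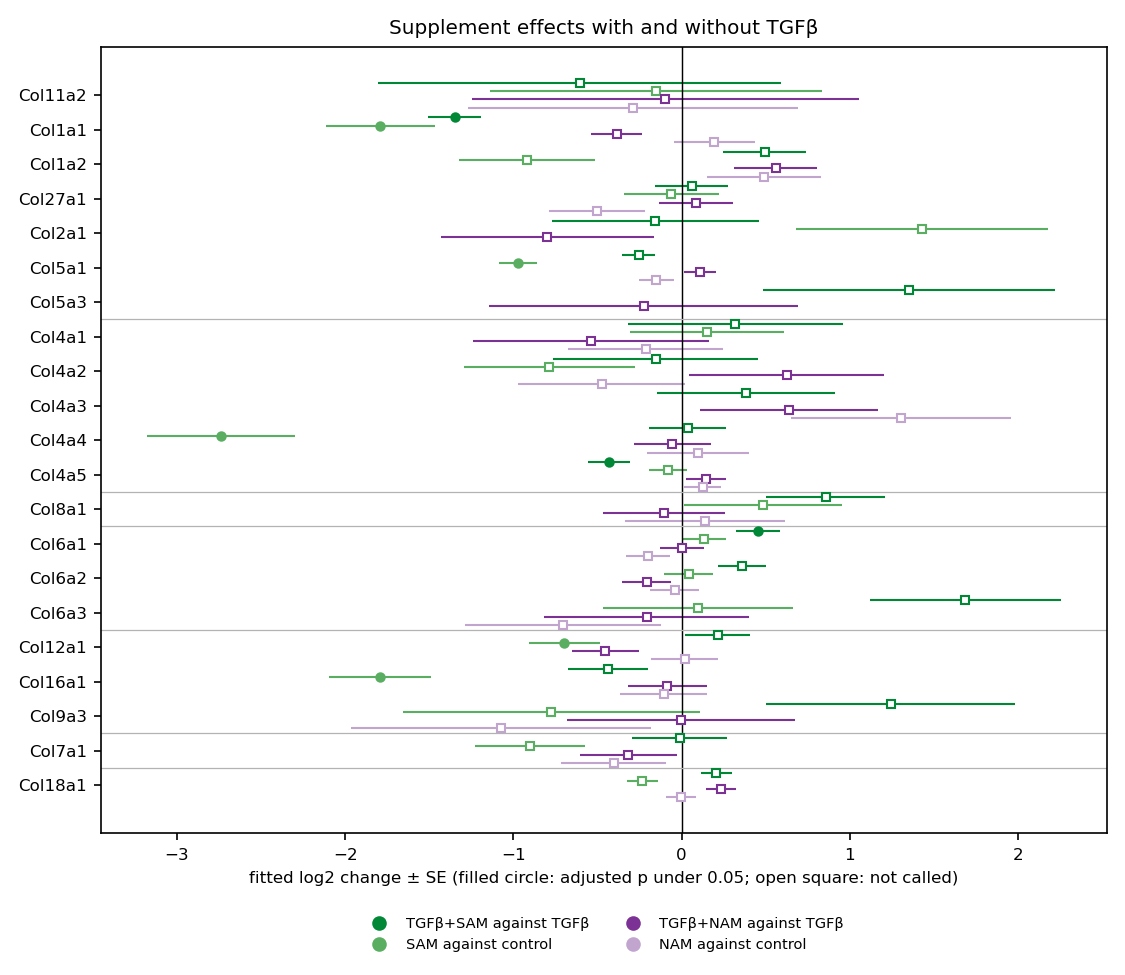
Fitted log2 change ± SE of each tested member for SAM and NAM with TGFβ (TGFβ+SAM against TGFβ, TGFβ+NAM against TGFβ) and without it (SAM against control, NAM against control); filled circles were called, open squares were not, and comparisons with a group of 3 or fewer reads are not drawn. The filled circles are those of SAM: Col1a1 in both settings, Col5a1, Col4a4, Col12a1 and Col16a1 without TGFβ, and Col4a5 and Col6a1 with it.

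Set against untreated control cells, TGFβ+SAM cells had 15 members higher and 3 lower, where 26.6% of all genes were called (12.5% higher and 14.1% lower), with a median log2 change of 1.31 against 0.00 for all genes. The groups did not overlap for 19 members and for 40.7% of all genes. Col1a1 was higher by 3.09 ± 0.20 (adjusted p = 9.36e-16), Col1a2 by 3.41 ± 0.30 (adjusted p = 3.57e-12) and Col8a1 by 3.39 ± 0.42 (adjusted p = 2.21e-08). The lower members were Col4a1 (-2.38 ± 0.54), Col4a2 (-2.08 ± 0.55; -2.71 without TGFβ+SAM replicate 2) and Col4a5 (-1.46 ± 0.12). This comparison shares its libraries with those above. Col9a3 was among the higher members (adjusted p = 0.034) but was not called without control replicate 1 (0.192) or 2 (0.12), TGFβ replicate 1 (0.0504), or TGFβ+SAM replicate 1 (0.11) or 2 (0.0879), and Col2a1 was not without TGFβ+SAM replicate 1 (0.0519).

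Genes that modify and cross-link collagen were examined beside the chains. Of 27 tested processing enzymes, 13 were higher and 4 lower in TGFβ+NAM than in NAM cells, 13 and 4 in TGFβ+SAM than in SAM cells, and 11 and 3 in TGFβ than in control cells, with medians of 0.44, 0.50 and 0.25 on the log2 scale against 0.00, 0.00 and 0.01 for all genes. Of all genes, 10.9% were higher and 11% lower in the NAM pair, 14.2% and 14.2% in the SAM pair and 9.7% and 9.74% without a supplement. With SAM replicates 2 and 3 left out, 11 were higher and 2 lower in TGFβ+SAM than in SAM cells. In SAM against control cells 1 was higher and 6 lower, where 5.02% and 6.79% of all genes were, and 0 and 2 without those libraries. Plod2 averaged 266 ± 21.7 CPM in TGFβ cells and 129.6 ± 15.2 CPM in control cells (1.04 ± 0.10 log2); it encodes a lysyl hydroxylase of the collagen telopeptide. Loxl2 averaged 22.1 ± 3.38 CPM in TGFβ cells and 2.13 ± 0.975 CPM in control cells (3.37 ± 0.34 log2); its product is an oxidase that cross-links collagen. P3h2 averaged 41.7 ± 4.75 CPM in TGFβ cells and 107 ± 6.39 CPM in control cells (-1.37 ± 0.12 log2); it encodes a prolyl hydroxylase known to act on type IV collagen. Pcolce averaged 209 ± 19.6 CPM in TGFβ cells and 449.6 ± 13.1 CPM in control cells (-1.11 ± 0.10 log2); its product enhances cleavage of the C-terminal propeptide. All 4 had an adjusted p of at most 2.76e-10. Among processing enzymes the SAM interaction called 3, where it called 1.43% of all genes: Loxl1 (0.71 ± 0.13), Pcolce2 (1.67 ± 0.36) and P4ha1 (0.59 ± 0.14), which were named after their values were seen because the count is small; without SAM replicates 2 and 3 it called Loxl1 alone.

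Of 7 tested collagen receptors, Cd44 and Itgb1 were higher and Itga1, Ddr1 and Adgrg1 lower in each of the 3 TGFβ comparisons. Of all genes, 12.7% were called in the same direction in all 3. The list medians were -0.44 in TGFβ+NAM against NAM, -0.30 in TGFβ+SAM against SAM and -0.29 in TGFβ against control cells; without SAM replicates 2 and 3, when 8 passed the read threshold, the SAM median was 0.32 with the same counts of 2 and 3. Itga1 encodes the α subunit of a collagen-binding integrin. Itga1 averaged 55.3 ± 6.29 CPM in TGFβ cells and 174 ± 13.5 CPM in control cells (-1.65 ± 0.12 log2), and Itgb1, its integrin partner, 1245 ± 0.418 CPM in TGFβ cells and 689 ± 30.8 CPM in control cells (0.85 ± 0.07). Cd44 encodes a receptor that binds hyaluronan and collagen. Cd44 averaged 743 ± 37.8 CPM in TGFβ cells and 346 ± 15.6 CPM in control cells (1.10 ± 0.09 log2). Ddr1, a collagen-binding tyrosine kinase, had a log2 change of -0.29 ± 0.08 (adjusted p = 0.0107). Of 10 tested genes of collagen breakdown and its inhibitors, 6, 7 and 6 were higher and 2, 2 and 1 lower in TGFβ+NAM against NAM, TGFβ+SAM against SAM and TGFβ against control cells, with medians of 0.72, 1.08 and 0.85, where 21.9%, 28.4% and 19.4% of all genes were called. Timp3 and Timp1 encode tissue inhibitors of metalloproteinases. Timp3 averaged 1663 ± 125 CPM in TGFβ cells and 612 ± 14.3 CPM in control cells (1.44 ± 0.08 log2), and Timp1 averaged 76.4 ± 6.27 CPM in TGFβ cells and 26.0 ± 2.96 CPM in control cells (1.56 ± 0.16 log2). Mmp14, a membrane-bound collagenase, changed by 1.05 ± 0.10 and Ctsl, a lysosomal protease, by 0.92 ± 0.09. In those 3 comparisons, where 21.9%, 28.4% and 19.4% of all genes were called, 9 matrix proteins that bind collagen were tested. Of these proteins, 6, 7 and 7 were higher and 1, 0 and 0 lower, with medians of 0.71, 1.07 and 0.70. Among them are periostin (Postn), fibronectin (Fn1), fibulin (Fbln2) and fibromodulin (Fmod), which organise or decorate collagen fibrils and the matrix around them. Postn changed by 2.11 ± 0.10, Fbln2 by 2.71 ± 0.13, Fn1 by 1.24 ± 0.07 and Fmod by 1.10 ± 0.12 in TGFβ against control cells. In SAM against control cells 3 of the receptors, 3 of the breakdown genes and 5 of the binding proteins were lower and 1, 0 and 0 higher, where 6.79% of all genes were lower and 5.02% higher; without SAM replicates 2 and 3 the lower counts were 1, 1 and 3 and none was higher. Postn had -1.54 ± 0.11 on the log2 scale in SAM against control cells. With NAM no gene of these 4 lists was called in either comparison.

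Promoter windows of 250 bases before to 50 bases after the start were available for 35 of the 44 members and for 16 of the 21 tested, 18 windows in all, from RefSeq (GRCm38.p6). CAGAC or its complement GTCTG, the core that SMAD proteins bind, was found in 10 of these 18 windows, and in 49.6% of the 32851 windows of all genes. Windows of Col1a2, Col5a1, Col27a1, Col4a4, Col7a1 and Col8a1, all called higher in the 3 TGFβ comparisons, had a match. So did windows of Col4a2, Col6a2, Col6a3 and Col18a1, which were not called higher in all 3. Col5a3 and Col16a1, higher in all 3, had no match, nor had Col4a1, Col4a5, Col6a1 and Col11a2. The longer CAGA box AGCCAGACA, which contains that core, or its complement was in 0 of 18 and in 0.387% of all windows. TGACTCA, the AP-1 site, or its complement was in 1, that of Col6a1, and in 5.20% of all. CCAAT or ATTGG was in 8 of 18 and in 37.4% of all, and TATAAA or TTTATA in 1 and in 13.6%. The window of Col1a2, a member that rose in all 3 comparisons, is shown as an example of a window with a match, with CAGAC in capitals.
Col1a2, chr6:4505368-4505667, plus strand: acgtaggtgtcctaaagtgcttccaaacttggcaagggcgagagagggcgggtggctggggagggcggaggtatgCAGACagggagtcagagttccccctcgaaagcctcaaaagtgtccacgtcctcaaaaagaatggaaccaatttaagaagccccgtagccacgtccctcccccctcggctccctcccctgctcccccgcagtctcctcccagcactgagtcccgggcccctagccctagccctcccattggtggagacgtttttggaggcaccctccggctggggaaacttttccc
A match is a description of the letters in the window, and no member set was tested for it.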

How the data were processed

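The authors deposited whole-number read counts per gene for each library. Reads were aligned with STAR and counted with HTSeq, per the submitters' processing notes, without versions. Those notes name GRCh38, although the gene identifiers are mouse Ensembl, and the sources used here do not give the strand setting. Reads in no gene took 22.8% to 28.2% of each library and ambiguous ones 0.607% to 0.779%, and both were left out. Of 55487 gene rows, 55141 were matched to symbols of GENCODE M21 (GRCm38). From the deposited counts, CPM were formed with TMM-scaled library sizes. edgeR 4.0.16 (R 4.3.3) fitted all 18 libraries with 6 group means after filterByExpr with a minimum count of 10, and quasi-likelihood F tests gave 8 comparisons and 2 interactions, with Benjamini-Hochberg adjustment over 13469 genes. DESeq2 1.42.0, other size factors, library totals, no filter or a minimum count of 30, the replicate number as a block, fits of the compared groups only and left-out libraries were the alternatives. 95% intervals of log2 changes are normal intervals built on the SE formed from the F statistic. The scripts were tested on simulated data. Values per library are printed for members called with a log2 change of at least 1 in TGFβ or SAM against control or an interaction and at least 5 CPM in a group, and up to 4 genes with the smallest p from each collagen-related list. The collagen chains and the lists were chosen with earlier results of these data known. Ratios of reads between groups carry 95% counting intervals, which cover counting error only. Where a group had no read, its level was set at a floor of 3 counts. The reads of the other group were then taken as exact. The result of 1 marker list is not reported here.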

Additional observations from a re-analysis of the deposited data

Results flagged for a closer look

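For 2 collagen chains the response to TGFβ in the presence of SAM differed from that in its absence by the interaction test of edgeR. The interaction of Col4a4 was 2.78 ± 0.50 on the log2 scale (adjusted p = 0.000718), and TGFβ+SAM and TGFβ libraries all lay above SAM and control libraries. Col4a4 averaged 0.830 CPM in SAM and 5.72 CPM in control cells, and 45.6 CPM in TGFβ+SAM and 44.5 CPM in TGFβ cells. Col5a1 averaged 30.1 CPM in SAM and 59.1 CPM in control cells, and 154 CPM in TGFβ+SAM and 184 CPM in TGFβ cells. The interaction of Col5a1 was 0.72 ± 0.15 (adjusted p = 0.00365), with the same order of treated and untreated libraries. Neither passed without SAM replicates 2 and 3, whose tags conflict with their titles (1.97, adjusted p = 0.181 and 0.69, adjusted p = 0.092), and SAM and anything else that goes with the separate block of library numbers cannot be told apart.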

How the results depend on the processing

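No direction of a called collagen chain reversed. Over all settings, 5513 of 5613 values for single genes stayed on the same side of the threshold, 61 lost the call and 39 gained one. Some values that were not called changed sign. Col9a3 in SAM against control, for example, went from -0.78 to 0.32 when SAM replicates 2 and 3 were left out. Leaving out 1 library at a time gave 13 to 15 called members for TGFβ against control, 12 to 16 for TGFβ+NAM against NAM, 16 to 17 for TGFβ+SAM against SAM, 4 to 7 for SAM against control, 2 to 4 for TGFβ+SAM against TGFβ, 17 to 18 for TGFβ+SAM against control and 2 to 4 for the SAM interaction. Without SAM replicates 2 and 3 the count was 3 for SAM against control and 0 for the SAM interaction. That interaction gave 4 with DESeq2, 4 without NAM replicate 3, and 4 once TGFβ+NAM replicate 1 was left out as well. Over all genes, leaving out SAM replicates 2 and 3 gave 2258 calls against 3824 for TGFβ+SAM against SAM, 466 against 1591 for SAM against control and 63 against 193 for the SAM interaction. All-gene calls were 15 without a filter and 14 with DESeq2 against 1 for NAM against control. For TGFβ+NAM against TGFβ they were 32 without a filter, 36 with DESeq2, 20 when TGFβ+NAM replicate 1 and NAM replicate 3 were left out, 0 in a fit of the compared groups only and 3 to 6 without single TGFβ libraries or TGFβ+NAM replicate 2, against 11. For TGFβ+SAM against TGFβ they were 630 to 653 without TGFβ replicate 3 or TGFβ+SAM replicate 1 or 2, against 986. With the replicate number as a block, 15, 14, 18, 5, 4 and 18 members were called in the 6 comparisons above, in that order, 2 in the SAM interaction and 0 in both NAM comparisons and the NAM interaction. It ended the calls of Col4a3 in SAM against control (adjusted p = 0.057) and Col9a3 in TGFβ+SAM against control (0.0532), and no other call of a named collagen chain. Same-numbered libraries did not deviate together (r of -0.0997 to 0.0696), and 6 of 18 libraries correlated best with their own number, so the numbers were not taken as pairs. Depth limits the 23 members below the threshold and the fold changes of Col5a3, Col2a1 and Col4a3 where a group had 3 or fewer reads.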
